A study of Mus musculus with 8 samples.

Results

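Sox9 and the genes of the cartilage programme that it is known for were followed in 8 bulk RNA libraries of mouse molar cells. The set holds 10 genes of the 56748 in the count table. It consists of the transcription factor genes Sox9, Sox5 and Sox6 and of 7 noncollagenous cartilage matrix genes, Acan, Comp, Hapln1, Matn1, Matn3, Snorc and Cnmd, taken as a list of names and not by a threshold on their values. All 10 passed the expression filter and were tested among 21508 genes. The libraries were made from tdTomato-positive cells, sorted at postnatal day 10 from mandibular molars of mice given tamoxifen at postnatal day 3. In 4 libraries, labelled cHet, the genotype is Ctnnb1(+/-), and in 4, labelled cKO, it is Ctnnb1(-/-). Ctnnb1 encodes beta-catenin, the effector of canonical Wnt signalling. By these labels every library carries at least 1 deleted copy, and the cHet libraries, which the series calls controls, are heterozygous. The labels describe the cells as CXCL12+ apical papilla cells, the tissue as dental pulp and the dissociated cells as dental follicle. They name neither the driver of the recombinase nor the deleted exons. Separate animals are not stated, so p-values measure the spread between libraries, which may be technical.

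In cartilage, SOX9 is the factor that commits mesenchymal cells to the chondrocyte fate. It acts with SOX5 and SOX6, which carry no transactivation domain of their own, on the genes of the cartilage matrix. Aggrecan, from Acan, is the large chondroitin sulfate proteoglycan of cartilage, and link protein, from Hapln1, ties it to hyaluronan. Matrilins and COMP bridge collagen fibrils and proteoglycans, SNORC is a transmembrane proteoglycan of chondrocytes, and chondromodulin, from Cnmd, is a matrix glycoprotein that inhibits vessel growth. SOX9 also marks neural crest-derived mesenchyme outside cartilage, and teeth contain no cartilage.

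Total counts lay between 44444033 and 50051392 per library. Ctnnb1 stood at 304 CPM (counts scaled to a common library size with trimmed-mean factors) in cHet8, 246 in cHet11, 209 in cHet12 and 271 in cHet14, against 262 in cKO7, 229 in cKO9, 313 in cKO14 and 305 in cKO15. The groups overlapped (log2 fold change 0.11, SE 0.15, adjusted p = 0.785), and a count over the whole gene, which can include exons outside the deletion, does not check the genotype. Cxcl12, the chemokine gene that names the cells, was detected in all 8 libraries, from 66.4 to 268 CPM in cHet and from 491 to 1001 CPM in cKO. It was called higher in cKO (log2 fold change 2.47, edgeR adjusted p = 0.0497, exact permutation p = 0.0286). This is near the log2 values of Sox9 (2.32) and Sox5 (2.31). The call on Cxcl12 held in 6 of 17 alternative fits, and its bearing on the other genes was not tested. Markers of other cell types were also present in every library. The summed level of 9 olfactory neuron markers lay between 7273 and 12952 CPM in cHet and between 6278 and 7777 CPM in cKO, and that of 7 ameloblast markers between 2314 and 11465 and between 4712 and 8553 CPM. The summed level of 13 general mesenchyme markers lay between 3448 and 11934 CPM in cHet and between 13322 and 26281 CPM in cKO, without overlap. Most of that sum is type I and type III collagen, and the mean log2 CPM of the same markers did overlap, with cHet8 at 7.49 and cKO9 at 7.39. The summed level of 5 ligament and tendon markers lay between 205 and 690 CPM in cHet and between 795 and 2603 CPM in cKO, also without overlap (4 of 5 positive, 0 called, median log2 value 1.09). Most of this sum is Postn, and the mean log2 CPM of these 5 markers did overlap, with cHet8 at 5.27 and cKO9 at 4.97. The log2 values were negative for all 9 olfactory neuron markers (median −0.45) and all 5 macrophage markers (median −1.30), with 0 called in either list. The part of these other cells in the results was not tested beyond the fits given with each gene.

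Promoter windows were available for 7 of the 10 genes, with none for Sox9, Comp or Snorc. The 4 shown were chosen after their values were seen. They belong to the 3 genes with the highest r with Sox9 within genotypes (Sox5, Hapln1, Cnmd) and to Matn1, which had no count in 3 libraries, so that the letters upstream of each can be read beside the values. Each is the 250 bases before the annotated RefSeq start in build GRCm38.p6 (for Cnmd the bases just after this start were not found in a GENCODE transcript of the gene). This build is not the one named for the counts. The windows are written 5′ to 3′ in the direction of the gene. Capitals mark a match to ACAAAG or ACAATG, short cores that SOX factors can bind, searched on both strands.
Sox5, chr6:143947107-143947356, minus strand: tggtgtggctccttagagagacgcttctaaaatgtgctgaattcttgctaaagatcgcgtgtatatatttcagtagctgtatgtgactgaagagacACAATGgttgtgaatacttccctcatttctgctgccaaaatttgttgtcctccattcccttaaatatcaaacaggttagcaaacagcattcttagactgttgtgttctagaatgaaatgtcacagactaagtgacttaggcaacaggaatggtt
Hapln1, chr13:89540386-89540635, plus strand: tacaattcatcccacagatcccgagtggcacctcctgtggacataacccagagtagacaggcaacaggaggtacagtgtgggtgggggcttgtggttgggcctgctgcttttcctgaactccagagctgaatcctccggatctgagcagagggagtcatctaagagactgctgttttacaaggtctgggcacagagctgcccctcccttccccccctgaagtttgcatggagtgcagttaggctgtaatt
Cnmd, chr14:79662184-79662433, minus strand: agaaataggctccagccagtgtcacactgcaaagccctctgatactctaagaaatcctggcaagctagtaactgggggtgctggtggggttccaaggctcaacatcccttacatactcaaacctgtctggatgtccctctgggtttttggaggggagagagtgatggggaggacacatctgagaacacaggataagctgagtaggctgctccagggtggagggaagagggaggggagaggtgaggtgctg
Matn1, chr4:130944135-130944384, plus strand: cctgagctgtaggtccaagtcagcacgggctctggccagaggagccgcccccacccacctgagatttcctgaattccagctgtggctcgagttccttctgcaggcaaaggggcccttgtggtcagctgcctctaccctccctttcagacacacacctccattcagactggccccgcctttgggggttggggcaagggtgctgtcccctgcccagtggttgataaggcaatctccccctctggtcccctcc
The Sox5 window holds 1 match, ACAATG at base 97 from its 5′ end, and the other 3 windows hold none. Of all 32851 windows of this length, 25.2% hold at least 1 of the cores, 16.5% ACAAAG and 10.7% ACAATG. Of the 12 windows of the 7 genes, 6 hold a match, 1 of Sox5 and 5 of the alternative starts of Sox6. A match is a description of letters, and no match says only that these letters are not in this window.

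Between the genotypes the set split. Sox9 and Sox5 had higher levels in every cKO library than in any cHet library, Cnmd followed with 1 cHet library inside the cKO range, and the classical cartilage matrix genes Comp, Matn1 and Snorc followed single libraries of either genotype. Of the 10 genes, 1 (Sox5) was called higher and 0 lower by edgeR's quasi-likelihood test at a Benjamini-Hochberg adjusted p under 0.05. Over all tested genes, 1.08% were called higher and 0.0558% lower. At an unadjusted p under 0.05 the count was 3 higher and 0 lower, where 10.8% of all tested genes were higher and 6.33% lower. The log2 fold changes were positive for 5 genes and negative for 5, with a median of −0.05 against −0.03 over all tested genes.

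**Figure D1:**
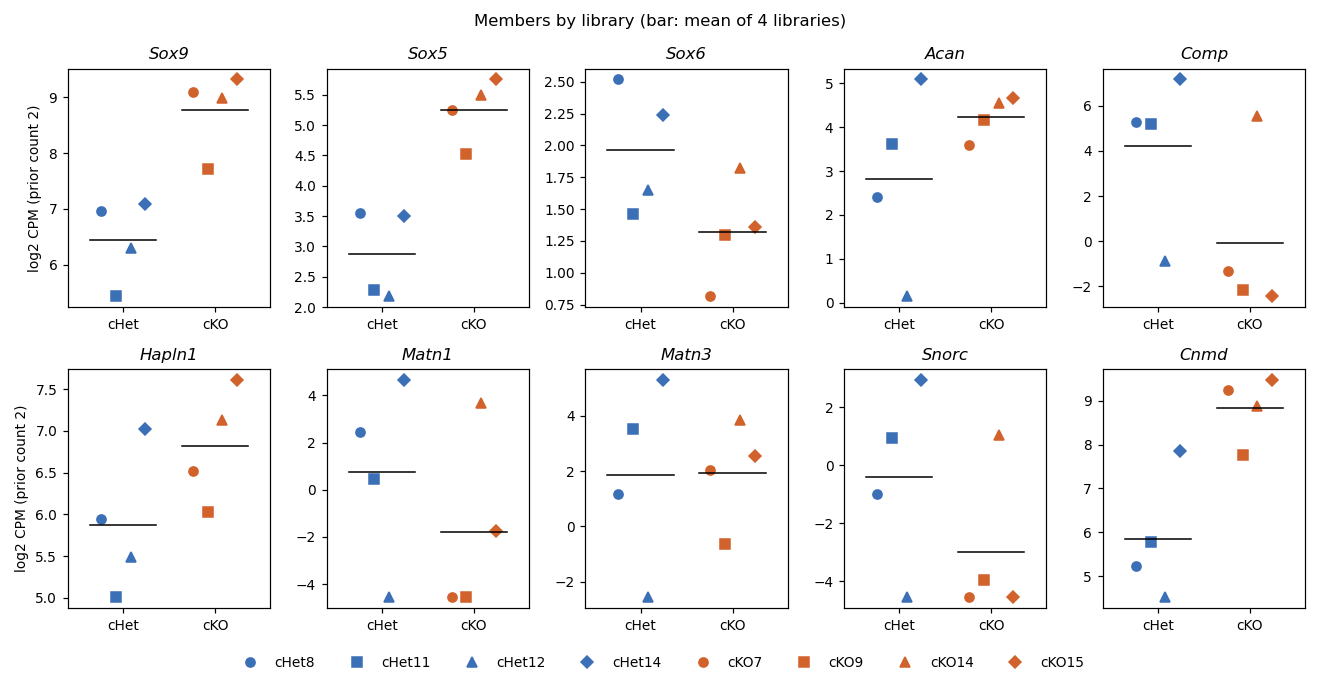
Log2 CPM (prior count 2, vertical axes on separate scales) of the 10 genes in 4 cHet (blue) and 4 cKO (orange) libraries, with 1 symbol per library and a bar at the group mean. Sox9 and Sox5 separate the groups, while Comp, Matn1 and Snorc have the same 4 highest libraries, cHet8, cHet11, cHet14 and cKO14. Highest is by rank only, as Matn1 is at 1.33 CPM in cHet11 and Snorc at 0.462 CPM in cHet8.

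Sox9 stood at 124 CPM in cHet8, 43.1 in cHet11, 78.8 in cHet12 and 136 in cHet14, and at 548 in cKO7, 211 in cKO9, 508 in cKO14 and 640 in cKO15. All 4 cKO libraries lay above all 4 cHet libraries, and cKO9 was the lowest of the cKO libraries. The means were 95.6 ± 42.8 and 477 ± 186 CPM (SD, n = 4 each), a 4.99-fold difference (log2 2.32, SE 0.44). By edgeR the adjusted p was 0.0526, just outside the threshold, and the exact permutation test over the 70 assignments of the libraries gave its smallest possible two-sided p of 0.0286. DESeq2 called Sox9 (adjusted p = 4.24e-07), as did voom (0.0140), and edgeR did without cKO9 (0.0230), while it did not when any of the other 7 libraries was omitted. In a bulk library a change in the number of cells of a type and in RNA per cell cannot be told apart.

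Sox5, the partner of Sox9 in cartilage, stood at 11.7, 4.82, 4.48 and 11.3 CPM in cHet8, cHet11, cHet12 and cHet14, and at 37.9, 23.0, 45.2 and 53.9 CPM in cKO7, cKO9, cKO14 and cKO15. The groups did not overlap, and cKO9 was again the lowest cKO library. Sox5 rose from 8.06 ± 3.95 to 40.02 ± 13.1 CPM (SD, n = 4 each), 4.96-fold (log2 2.31, SE 0.41, edgeR adjusted p = 0.0465, exact permutation p = 0.0286). Groups that do not overlap, with cKO higher, were found for 2 of the 10 genes, Sox9 and Sox5, and for 6.46% of all tested genes. Groups apart with cKO lower were found for 0 of the 10 and for 3.68% of all tested genes. The call on Sox5 ended without any of cHet8, cHet11, cHet12, cHet14, cKO7, cKO14 or cKO15 (adjusted p between 0.0587 and 0.150), held without cKO9 (0.0257) and ended with the general mesenchyme score as covariate (log2 1.57, adjusted p = 0.528). With 1 library omitted its log2 value stayed between 2.11 and 2.55. Over all tested genes, 232 were called higher in the main fit and 155 without cHet8. Without any other library whose omission ended the call the count was 0 to 8, and with the covariate it was 8. With that covariate the log2 value of Sox9 was 1.31 (adjusted p = 0.599). The general mesenchyme markers moved in the same direction as Sox9 and Sox5, with 11 of 13 positive, 1 called higher (1.08% over all tested genes) and a median log2 value of 1.22. With libraries scaled to these markers the log2 value was 1.16 for Sox9 (edgeR adjusted p = 0.0738) and 1.10 for Sox5 (0.0885, so its call ended). This scaled fit called 3 genes higher over all tested genes. The median of all genes in that fit was −1.27, and Sox9 stood 2.43 and Sox5 2.38 above it. Scaling moves all genes of a library by the same factor. A distance from the median therefore stays near the value without scaling and is no further check. The same holds for the distances given below for Cnmd, Sox4 and Mmp13. How far the share of mesenchymal RNA bears on these values was not tested beyond these fits.

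Sox6, a SoxD factor like Sox5, was not called. It stood at 5.68 CPM in cHet8, 2.71 in cHet11, 3.10 in cHet12 and 4.66 in cHet14, and at 1.72 in cKO7, 2.42 in cKO9, 3.50 in cKO14 and 2.52 in cKO15. The groups overlapped, with means of 4.04 ± 1.38 and 2.54 ± 0.733 CPM (SD, n = 4 each; log2 −0.67, SE 0.36, edgeR adjusted p = 0.392). The log2 ratio of Sox6 to Sox9 was lower in all cKO libraries than in any cHet library, by 2.98 on average (exact permutation p = 0.0286, 0.103 adjusted over 9 such ratios). That of Sox5 to Sox9 differed by 0.04 (exact permutation p = 0.914, 0.914 adjusted), with an SD of 0.41 in cHet and 0.27 in cKO. The lower ratio of Sox6 contains the higher Sox9 of every cKO library, which would lower the ratio of an unchanged gene as well. The share of all tested genes with such a ratio was not computed.

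Of the matrix genes, Cnmd had the log2 fold change nearest to that of Sox9. It stood at 37.5 CPM in cHet8, 54.6 in cHet11, 23.0 in cHet12 and 231 in cHet14, and at 610 in cKO7, 216 in cKO9, 468 in cKO14 and 706 in cKO15. The sole overlap was between cHet14, the highest cHet library, and cKO9, the lowest cKO library. The means were 86.6 ± 97.4 and 499.98 ± 213 CPM (SD, n = 4 each; 5.77-fold, log2 2.53, SE 0.75), and the test was not passed (edgeR adjusted p = 0.149, exact permutation p = 0.0571). DESeq2 (adjusted p = 0.0326) and voom (0.0276) called the gene. Without cHet14 the log2 value was 3.69 (edgeR adjusted p = 0.112), and 1.10 with mesenchyme scaling, 2.37 above the median of all genes in that fit.

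Hapln1, the link protein gene, stood at 61.6, 32.1, 44.9 and 130 CPM in cHet8, cHet11, cHet12 and cHet14, and at 91.7, 65.4, 141 and 195 CPM in cKO7, cKO9, cKO14 and cKO15. The cHet14 value lay within the cKO range. The means of 67.2 ± 43.7 and 123 ± 57.1 CPM (SD, n = 4 each) differed by 0.87 on the log2 scale (SE 0.48, edgeR adjusted p = 0.401). The log2 ratio of Hapln1 to Sox9 was lower in every cKO library, by 1.38 on average (exact permutation p = 0.0286, 0.103 adjusted over 9 ratios). As for Sox6, this ratio contains the higher Sox9 of cKO and is not read as a result about Hapln1 alone. Acan, the aggrecan gene, ranged wider within cHet than between the groups, at 5.30 CPM in cHet8, 12.3 in cHet11, 1.06 in cHet12 and 34.0 in cHet14. In cKO it stood at 12.02 CPM in cKO7, 17.8 in cKO9, 23.3 in cKO14 and 25.2 in cKO15, all inside the cHet range (log2 0.57, SE 0.82, edgeR adjusted p = 0.790). Without cHet14 the log2 value of Acan was 1.63 and that of Hapln1 1.41, and neither passed (adjusted p = 0.396 and 0.216).

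Comp, the gene of the pentameric cartilage oligomeric matrix protein, took a different course. It stood at 39.4 CPM in cHet8, 36.6 in cHet11 and 144 in cHet14 but at 0.510 in cHet12, and at 47.6 CPM in cKO14 but at 0.357 in cKO7, 0.179 in cKO9 and 0.141 in cKO15. In raw counts this is 1929 to 6681 in 4 libraries and 6 to 24 in the other 4. The mean of cHet was 55.2 ± 62.0 CPM and that of cKO 12.1 ± 23.7 CPM (SD, n = 4 each), with each SD above its mean (log2 −2.19, SE 1.94, edgeR adjusted p = 0.627), and without cKO14 the log2 value was −7.91 (adjusted p = 0.173).

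Matn1, the matrilin typical of cartilage that is not articular, stood highest in the same 4 libraries, at 24.9 CPM in cHet14, 12.8 in cKO14, 5.41 in cHet8 and 1.33 in cHet11. It was at 0.259 CPM in cKO15, and no count was found in cHet12, cKO7 or cKO9, which allows up to 3 counts or 0.0637, 0.0669 and 0.0671 CPM. Snorc stood at 7.54 CPM in cHet14, 2.02 in cKO14, 1.86 in cHet11 and 0.462 in cHet8, with 1 count in cKO9 and none in cHet12, cKO7 or cKO15. Neither gene passed (log2 −1.28 for Matn1 and −2.26 for Snorc, edgeR adjusted p = 0.827 and 0.633). The sign for Matn1 turned without cHet14 (0.53) and the log2 values without cKO14 were −6.46 for Matn1 and −7.92 for Snorc. These fitted values depend on the prior count where libraries are at 0.

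Matn3, a second matrilin gene expressed in growth cartilage, was intermediate. It stood at 2.22 CPM in cHet8, 11.4 in cHet11, 0.127 in cHet12 and 38.7 in cHet14, and at 4.08 in cKO7, 0.604 in cKO9, 14.2 in cKO14 and 5.74 in cKO15. The groups overlapped (log2 −1.09, SE 1.36, edgeR adjusted p = 0.750), and the sign turned without cHet14 (0.40). Comp, Matn1 and Snorc, 3 of the 7 matrix genes, thus had the same 4 highest libraries, as did 1.44% of all tested genes. This pattern was seen in the values and carries no test. Among further cartilage genes picked with the values known, Col2a1, Epyc, Ihh, Col10a1, Cilp2 and Susd5 had the same 4 highest libraries. Cytl1, Ucma, Col11a2, Col9a1, Col9a2, Col9a3 and Chad did not.

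**Figure D2:**
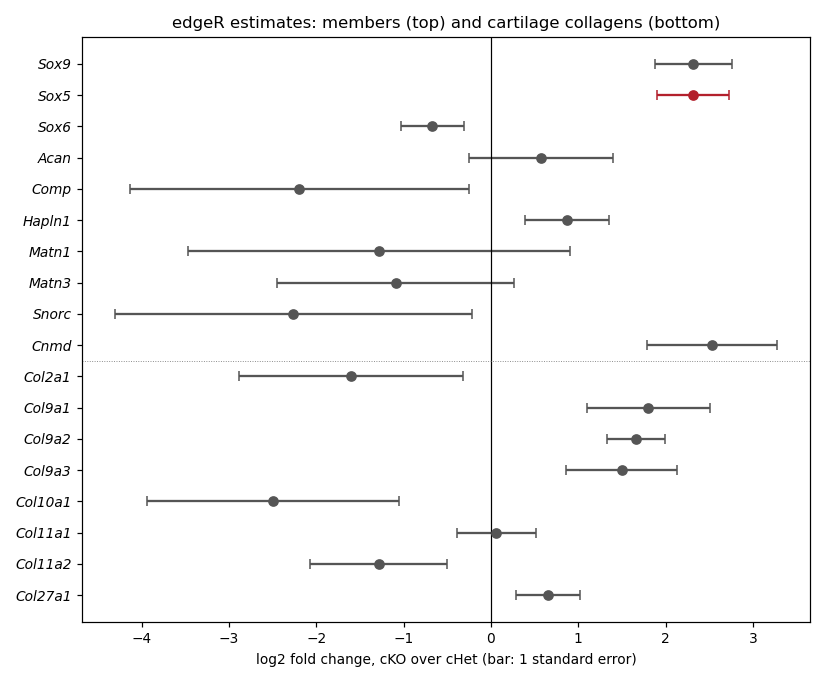
Log2 fold change of cKO over cHet by edgeR (horizontal axis, bar 1 standard error) for the 10 genes (above the dotted line) and 8 cartilage collagens (below it), with called genes in red. Sox5 is the sole call, and the bars of Comp, Matn1 and Snorc are several times as long as those of Sox9 and Sox5.

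Whether Sox9 and the matrix genes moved together was examined library by library. Because Sox9 separates the genotypes, a correlation over all 8 libraries would mostly repeat the difference between groups. Group means were therefore subtracted from log2 CPM, and r was tested by exact permutation of the libraries within groups (576 arrangements, 9 relations, two-sided). Sox5 deviated with Sox9 (r = 0.88, exact p = 0.0208, 0.0938 adjusted; rho = 0.88, exact p = 0.0260, 0.117 adjusted), and so did Hapln1 (r = 0.85, exact p = 0.0156, 0.0938 adjusted; rho = 0.90, exact p = 0.0104, 0.0938 adjusted). Neither passed after adjustment, so 0 of 9 relations were called, against 2 at an unadjusted exact p under 0.05. For Cnmd r was 0.56 (exact p = 0.207, 0.551 adjusted) and rho 0.76 (exact p = 0.0451, 0.135 adjusted).

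For the remaining matrix genes the r values were 0.44 for Matn1, 0.35 for Matn3, 0.24 for Comp, 0.15 for Acan and 0.12 for Snorc, with rho of 0.55, 0.48, 0.29, 0.31 and 0.12 (exact p between 0.326 and 0.781 for r and between 0.201 and 0.781 for rho). Sox6 had r of 0.49 and rho of 0.45 (exact p = 0.245 and 0.290). With cKO9 and cHet11 left out, the 2 libraries farthest from the median of Sox9, r was 0.94 for Sox5, 0.76 for Hapln1, 0.77 for Cnmd, 0.85 for Acan, 0.79 for Matn3, 0.58 for Matn1, 0.47 for Snorc, 0.46 for Sox6 and 0.42 for Comp. The values of Acan, Matn3 and Snorc thus depended on those 2 libraries, and without cHet14 alone r was −0.22 for Acan and −0.13 for Snorc. With mesenchyme scaling r was 0.88 for Cnmd (exact permutation, adjusted p = 0.0156), 0.83 for Matn3, 0.82 for Hapln1, 0.81 for Sox5, 0.65 for Acan, 0.62 for Snorc, 0.61 for Matn1, 0.55 for Comp and 0.22 for Sox6. That scaling divides Sox9 and each other gene by the same factor per library. The shared factor can raise r by itself, and the permutation does not keep it. No share over all tested genes was computed with that scaling, so no relation is read from its r values. The differences between these r values were not tested, so no order of the genes is read from them. Without that scaling, the median r with Sox9 over all tested genes was −0.06, and 2.60% of them had an r at least as high as Sox5, 4.10% as Hapln1, 17.8% as Cnmd and 39.4% as Snorc.

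**Figure D3:**
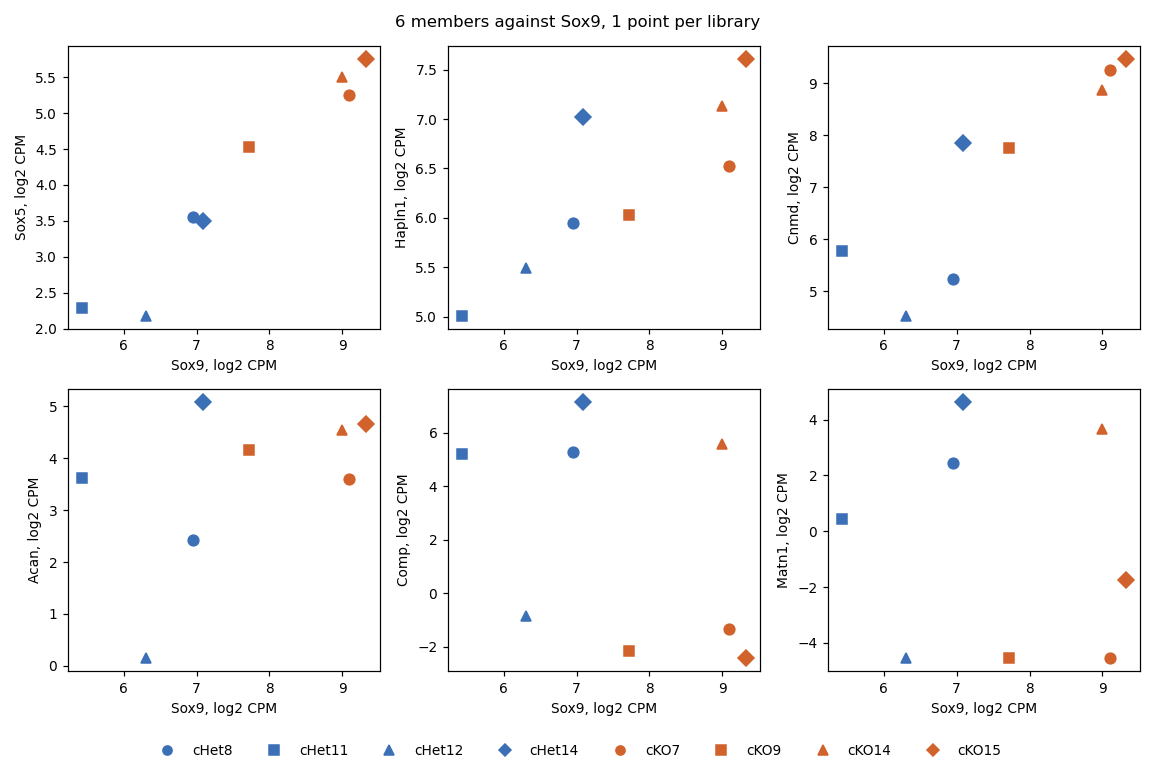
Log2 CPM of 6 genes (vertical axes) against that of Sox9 (horizontal axes), 1 symbol per library, cHet blue and cKO orange. Over both genotypes together Sox5, Hapln1 and Cnmd climb with Sox9, which contains the difference between the groups. Comp and Matn1 are low in 3 of the 4 cKO libraries, where Sox9 is high, and also in cHet12, where Sox9 is lower. They are higher in cKO14, where Sox9 is high as well.

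In cHet14, which had the highest Sox9 of the cHet libraries, Acan, Comp, Matn1, Matn3 and Snorc were also at their highest of all 8 libraries. In cKO15, which had the highest Sox9 of all libraries, Sox5 (53.9 CPM), Hapln1 (195 CPM) and Cnmd (706 CPM) were also at their highest. Comp stood there at 0.141 CPM, its lowest value.

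Of 8 cartilage collagens tested, 0 were called by edgeR in either direction, and 3 had an unadjusted p under 0.05, the chains of type IX collagen, a fibril-associated collagen of cartilage. All 3 were higher in cKO, where 10.8% of all tested genes were higher and 6.33% lower at that p. Col9a2 lay between 93.5 and 229 CPM in cHet and between 262 and 537 CPM in cKO, without overlap (log2 1.66, SE 0.33, adjusted p = 0.0596). Col9a1 (log2 1.80, adjusted p = 0.246) and Col9a3 (log2 1.497, adjusted p = 0.278) overlapped through cHet14, at 221 and 238 CPM, and cKO9, at 111 and 124 CPM. Col2a1, which encodes the main fibrillar collagen of cartilage and was named after its values were seen, stood at 215, 430 and 1840 CPM in cHet8, cHet11 and cHet14 and at 659 CPM in cKO14. In cHet12, cKO7, cKO9 and cKO15 it stood between 26.6 and 74.3 CPM. Col11a1 (log2 0.06) and Col27a1 (0.65) were positive and Col11a2 (−1.28) negative. The 4 libraries low in Col2a1 are those in which Comp was below 1 CPM, and the groups overlapped for Col2a1 (log2 −1.60, SE 1.28, adjusted p = 0.584).

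Of the other cartilage matrix genes, 9 of 11 were tested, with 0 called and a median log2 value of −0.83. The related proteoglycans gave 1 call among 9 tested genes, where 1.08% of all tested genes were called higher and 0.0558% lower. Vcan, the gene of versican, a large hyaluronan-binding proteoglycan of loose mesenchyme in the same family as aggrecan, rose from 39.96 ± 22.5 to 258 ± 83.3 CPM (SD, n = 4 each; log2 2.69, SE 0.41, edgeR adjusted p = 0.0376). Hapln3, another link protein gene, lay between 3.11 and 8.07 CPM in cHet and between 8.77 and 26.8 CPM in cKO (log2 2.01, adjusted p = 0.0791). Among 15 genes of chondroitin sulfate synthesis 1 was called higher and 0 lower (median 0.33). This was Chsy3, a chondroitin synthase gene, which rose from 3.32 ± 1.69 to 20.4 ± 5.002 CPM (SD, n = 4 each; log2 2.62, SE 0.43, adjusted p = 0.0385), while the polymerizing factor gene Chpf stood at 71.0 and 173 CPM (adjusted p = 0.0673).

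Among 10 other Sox genes 1 was called higher and 0 lower. For this list and those that follow, the shares over all tested genes were 1.08% higher and 0.0558% lower. Sox4, a SoxC factor of progenitor cells, rose from 96.9 ± 12.4 to 212 ± 27.0 CPM (SD, n = 4 each; log2 1.13, SE 0.14, edgeR adjusted p = 0.0271). With mesenchyme scaling its log2 value was −0.10, which is 1.18 above the median of all genes. Of 17 tested regulators of chondrocytes 2 were called higher and 0 lower (median 0.30). Fgfr3, a receptor known to restrain growth cartilage, rose from 25.2 ± 13.0 to 154 ± 38.9 CPM and the forkhead gene Foxc2 from 5.30 ± 2.19 to 30.6 ± 9.26 CPM (SD, n = 4 each; adjusted p = 0.0376 for each). In a list of 7 hypertrophic chondrocyte genes 1 was called higher and 0 lower, the collagenase gene Mmp13 (55.1 ± 17.3 to 130 ± 25.0 CPM, adjusted p = 0.0497), which bone cells also express. The type X collagen gene Col10a1, the defining gene of that list, stood between 3.12 and 39.4 CPM in cHet and between 0 and 9.67 CPM in cKO, highest in cHet14 and at no count in cKO15 (log2 −2.49, adjusted p = 0.426).

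The calls on Vcan, Chsy3, Sox4, Fgfr3, Foxc2 and Mmp13 held without cKO9. They ended, with edgeR adjusted p between 0.0716 and 0.160, without any of cHet11, cHet12, cHet14, cKO7, cKO14 or cKO15. In those fits 0 to 8 genes were called higher over all tested genes, against 232 in the main fit. Without cHet8 the calls on Fgfr3 (0.0531) and Mmp13 (0.0788) ended, and the other 4 held. All 6 calls also ended with mesenchyme scaling (adjusted p between 0.0738 and 0.903), with the mesenchyme covariate (0.154 to 0.403) and with the olfactory neuron covariate (0.431 to 0.510). Over all tested genes these fits called 3, 8 and 0 genes higher, in that order. With mesenchyme scaling the log2 value was 1.66 for Vcan, 1.49 for Fgfr3, 1.35 for Foxc2 and 1.26 for Chsy3. The call on Mmp13 ended as well with RLE factors (0.0536), with library size alone (0.0565) and without a filter (0.0503). The sign of Mmp13 turned with mesenchyme scaling (−0.0698, which is 1.20 above the median of all genes).

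**Figure D4:**
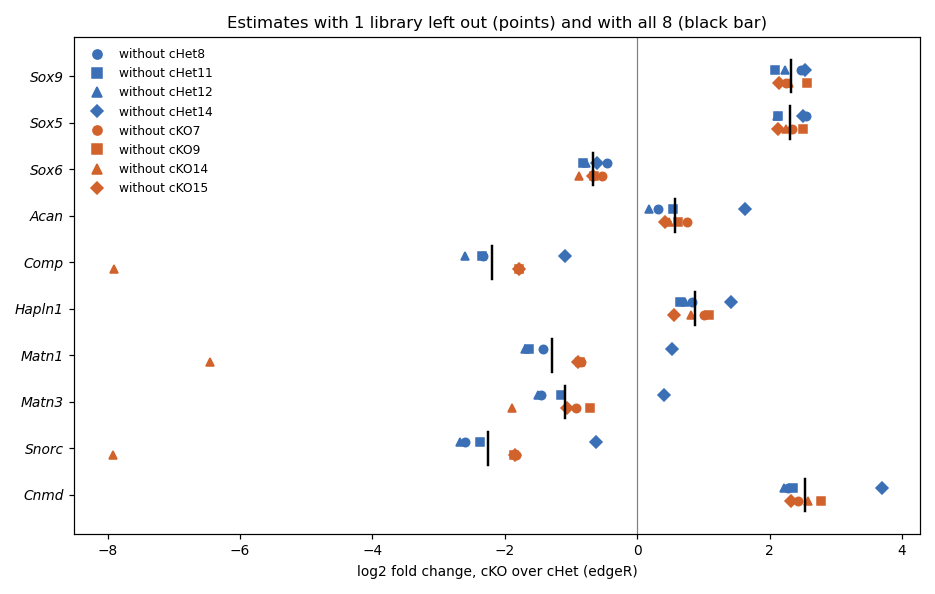
Log2 fold change of cKO over cHet by edgeR (horizontal axis) for each of the 10 genes with 1 library left out (1 symbol per omitted library, cHet blue and cKO orange) and with all 8 libraries (black bar). Sox9 stays between 2.08 and 2.56, whereas Comp, Matn1 and Snorc fall to between −7.92 and −6.46 without cKO14.

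The genes whose profile over the 8 libraries was most like that of Sox9 were named as a description. Outside the set, and leaving aside genes whose mean was under 5 CPM, these were Sec31a (r = 0.996), Vasn (0.994), Clec11a (0.993), Parva (0.991) and Usp11 (0.991). In each of the 5 the groups did not overlap, so r contains the difference between genotypes. For Acan they were Polr3a (r = 0.972), Ddx31 (0.969), Orc3 (0.956), Nsun3 (0.953) and Dtnb (0.950), and the groups overlapped in each. For Comp, examined after its values were seen, they were Gpr37l1 (r = 0.940), Mgp (0.938), Tsen15 (0.935), Chrdl1 (0.933) and Col2a1 (0.928). Mgp encodes matrix Gla protein, an inhibitor of cartilage mineralization.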

How the data were processed

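Full-length cDNA of 4 cHet and 4 cKO samples was made with SMART-Seq v4 chemistry, per the labels' protocols. The deposited table holds raw counts per Ensembl gene, whole numbers with no normalization. Trim Galore, STAR and the builds GRCm39 and mm39 are named, per the submitters' processing notes. For the counting tool and annotation: not given in the sources used here. That chemistry does not mark strand, so reads of antisense partners cannot be told apart. Of 56748 identifiers, 52073 matched a symbol, and the identifier with the most counts stood for a shared symbol. Column numbers (cHet8 and so on) match no sample title, so columns were assigned to groups only.

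The test of cKO against cHet was run with edgeR 4.0.16 under R 4.3.3 (TMM factors, default filter, quasi-likelihood test, genotype as the sole term), with Benjamini-Hochberg adjustment over all 21508 tested genes and 0.05 as threshold. The SE is the log2 change divided by the square root of F, an approximation. CPM is on TMM-scaled libraries and log2 CPM has a prior count of 2. Fits with DESeq2 1.42.0 and limma 3.58.1 (voom with quality weights), other scalings, filters and covariates, and omission of each library were run. A score is the mean log2 CPM of a list. Single values and correlations were tested by exact permutation. The edgeR and correlation steps were tested on simulated data. Total counts lay between 44444033 and 50051392, with a common biological coefficient of variation of 0.553. Floors of 3 counts cover counting error only. The genes and lists were chosen with earlier results of these data known. From each list, up to 4 genes with the smallest p could be named, and the 5 genes most like Sox9 and Acan. Ratios to Sox9, likeness to Comp, and the naming of Col2a1, Col10a1, Col11a1 and Col11a2 were added after values were seen. So were the further cartilage genes compared by their 4 highest libraries.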

Additional observations from a re-analysis of the deposited data

Results flagged for a closer look

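In 48 sets of 4 libraries (24 genes in each genotype), the highest or lowest library was checked for a gap to its nearest neighbour above Dixon's 95% critical share of the whole range of log2 CPM. Chance passes about 5% of such sets, and 7 passed, all within cKO. Genes measured in the same libraries are not independent. For Comp the gap of cKO14 above the other cKO libraries was 0.860 of the range (log2 CPM of 5.57 against −2.44 to −1.32), and for Snorc it was 0.891 (1.04 against −4.55 to −3.95). In the other 5 sets cKO9 lay below the remaining cKO libraries. The gap was 0.921 of the range for Col9a1 (6.79 against 8.42 to 8.56), 0.957 for Col9a3 (6.95 against 8.32 to 8.38) and 0.919 for Hapln3 (3.14 against 4.62 to 4.75). It was 0.833 for Chpf (6.46 against 7.57 to 7.80) and 0.877 for Foxc2 (4.08 against 5.07 to 5.21). No flagged value comes from a cHet library.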

How the results depend on the processing

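Over all genes edgeR called 232 genes higher and 12 lower. DESeq2 called 1704 and 853, voom 1281 and 271, mesenchyme scaling 3 and 1, the mesenchyme covariate 8 and 2, and the olfactory neuron covariate 0 and 0 (1457 genes at an unadjusted p under 0.05). Without a filter 5 genes were lower. Omission of 1 library gave 0 to 816 higher and 0 to 144 lower, with the highest counts without cKO9. No gene was called higher without cHet12, cHet14 or cKO14 (3352, 3022 and 2934 genes at an unadjusted p under 0.05). No gene was called lower without any of these or without cHet11, cKO7 or cKO15. Of the 10 genes, the count called higher was 1, and it was 3 with DESeq2 and with voom (Sox9, Sox5, Cnmd), 2 without a filter and with a filter of 1 CPM in 4 libraries, and 0 with RLE factors, with mesenchyme scaling and with either covariate. It was 0 to 2 with 1 library omitted. No member was called lower in any fit. Sox9 was called in 5 of 17 alternatives and kept a positive value in all (1.16 to 2.56), Sox5 in 6 of 17 (1.10 to 2.55).

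Signs turned for Acan (−0.91), Hapln1 (−0.41), Ctnnb1 (−1.18), Sox4 (−0.10) and Mmp13 (−0.0698) with mesenchyme scaling, which places the median of all genes at −1.27. They turned for Matn3 with voom (0.28), with the mesenchyme covariate (0.0766), with the olfactory covariate (2.28) and without cHet14 (0.40), and for Matn1 with the olfactory covariate (0.50) and without cHet14 (0.53). With the olfactory covariate Snorc was at 1.40, Col2a1 at 1.01 and Ctnnb1 at −0.0552, and Ctnnb1 was at −0.0684 with the mesenchyme covariate. The relations with Sox9 past the threshold were 0 in the main form and 1 (Cnmd, r = 0.88, adjusted p = 0.0156) with mesenchyme scaling, with which r also went from 0.15 to 0.65 for Acan, from 0.35 to 0.83 for Matn3, from 0.24 to 0.55 for Comp and from 0.12 to 0.62 for Snorc. The factor that this scaling puts into both genes can raise r by itself, and no share over all tested genes was computed with it. With 1 library omitted, the log2 values ran from −6.46 to 0.53 for Matn1 and from −1.89 to 0.40 for Matn3, and r ran from −0.22 to 0.42 for Acan and from −0.13 to 0.35 for Snorc, the lowest r of each without cHet14. The cause of these shifts was not tested. No paired analysis was possible because the labels name no pairs, and the columns carry none of their replicate numbers.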
